A study of Mus musculus with 6 samples.

Results

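The genes described here are 10 that carry iron into red cell precursors, deliver it to mitochondria, store it, export it, sense it or release it from heme. They were chosen by gene symbol: Tfrc, Tfr2, Steap3, Slc11a2, Slc25a37, Fth1, Ftl1, Slc40a1, Ireb2 and Hmox1. All 10 have a row among the 17463 genes of the deposited tables, and all 10 passed the filter that left 11277 genes for testing. The cells were erythroblasts from the fetal liver of C57BL/6J mice, depleted of cells bearing TER119, a surface protein of maturing erythroid cells, and grown for 30 h in medium with erythropoietin (Epo). In the control group (3 samples) nothing further was added according to the labels, whereas the study's figure legend speaks of vehicle, and in the other group (3 samples) the medium held cholesterol at 40 µM. According to the study's methods, cells that had gained TER119 were then sorted and their RNA was sequenced. The embryonic day is stated in the study and not in the labels. The labels do not say whether the samples came from separate litters or cultures, so p-values measure the spread between these samples, which may be technical. In bulk RNA, fewer cells of a type and less RNA per cell cannot be told apart.

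Erythroblasts take up iron bound to transferrin through transferrin receptor 1, reduce it in the endosome, pump it into the cytosol and pass it into mitochondria, where it is built into heme and iron-sulfur clusters. Iron not used in this way is held in ferritin or leaves the cell through ferroportin. The 2 iron regulatory proteins, encoded by Aco1 and Ireb2, bind hairpins called iron-responsive elements (IREs) in mRNAs when iron is scarce. Bound near the start of an mRNA they block its translation, and bound in the 3′ UTR of Tfrc they protect the mRNA from decay, so that the mRNA level of Tfrc itself is under iron control while that of ferritin largely is not.

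Hairpins of 1 fixed shape were searched for in the transcripts of the members, which divides the 10 genes into those with such a match and the rest. Binding by the iron regulatory proteins was not measured. The search asked, on the transcript strand, for an unpaired C, a stem of 5 pairs, the loop CAGTGN and a lower stem of 5 positions with at least 4 pairs, counting G-T as a pair, in GENCODE M21 transcripts (GRCm38). Of 21877 protein-coding genes, 30 held a match, or 0.137%, and 4 of the 10 members did: Fth1, Ftl1 and Slc40a1 with 1 match each in the 5′ UTR, within exon 1 of the first listed transcript, and Tfrc with 4 matches in the 3′ UTR, within its last exon, exon 19. Capitals mark the unpaired C and the loop.
Fth1, chr19:9982733-9982759, plus strand: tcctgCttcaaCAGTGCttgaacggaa
Ftl1, chr7:45459780-45459806, minus strand: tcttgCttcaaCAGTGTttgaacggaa
Slc40a1, chr1:45925466-45925492, minus strand: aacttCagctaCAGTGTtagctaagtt
Tfrc, chr16:32631220-32631246, plus strand: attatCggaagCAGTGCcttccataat
Tfrc, chr16:32631599-32631625, plus strand: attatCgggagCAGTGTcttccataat
Tfrc, chr16:32631664-32631690, plus strand: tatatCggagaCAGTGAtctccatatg
Tfrc, chr16:32631711-32631737, plus strand: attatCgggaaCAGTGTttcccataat
The Tfrc and Slc40a1 hairpins had 5 pairs in the lower stem and the ferritin hairpins 4. A match is a match of letters and pairing alone, and its absence says only that no stretch of the transcript met these rules. Hairpins of another shape or with fewer pairs were not counted, so members without a match may still hold an IRE, and Tfrc may hold more.

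RNA-seq totals lay between 19826849 and 20061724 estimated counts per sample, so that 3 counts, the least taken as detectable, were about 0.15 CPM (the count scaled to library size, here with TMM factors). The members were far above this, with the fewest counts, 415 to 583 per sample, for Hmox1. Together they took 1.75% to 1.95% of all counts, and Fth1 and Ftl1 alone 1.10% to 1.22%. The samples carry the replicate numbers 1 to 3 in both groups, and same-numbered samples deviated from their group means together (correlation across genes 0.710, 0.322 and 0.812 for numbers 1 to 3). For number 2 the match was not particular to the number, since cholesterol sample 2 correlated with control sample 1 at 0.321. Counts of calls are therefore given with condition alone and with the number as a block. Both fits are given for Slc25a37 and Tfrc, whose call the block changed, and values of the other members are from the fit with the block. Erythroid markers were high in every sample, with 9 markers summing to 70234 to 104530 CPM. Markers of other cells were low. The summed hepatocyte markers changed by log2 differences of 0.79, −0.52 and −0.25 within pairs 1 to 3, and 0 of 10 were called with the block. For megakaryocyte markers the differences were −0.06, −0.07 and −0.24, and 1 of 8 was called lower. Those of granulocytes, macrophages, and mast cells and basophils moved with the groups and the numbers. The 9 granulocyte markers summed to 70.4, 253 and 674 CPM in control samples 1 to 3 and to 40.5, 110 and 281 CPM in cholesterol samples 1 to 3, and 9 of 9 were called lower with cholesterol in the model with the block. The 12 macrophage markers summed to 19.1, 43.2 and 133 CPM in the control and 14.3, 20.6 and 63.1 CPM in the cholesterol samples, with none at 0 in every sample, and of the 9 tested 5 were called lower and 1 higher. In the same order of samples the 7 mast cell and basophil markers summed to 4.35, 7.23 and 22.6 CPM and to 2.51, 2.72 and 3.99 CPM, and all 3 tested were called lower. These calls are from edgeR with the block, where 5.2% of all genes were called lower and 1.65% higher. DESeq2 with the block called 7 granulocyte, 3 macrophage and 2 mast cell and basophil markers lower, where it called 2.16% of all genes. With condition alone, edgeR and DESeq2 called 0 markers of these cells.

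The levels of the members spanned more than 2 orders of magnitude on the FPKM scale, which corrects for transcript length. The light and heavy chains of ferritin, the iron storage shell, stood highest, at 7579 ± 401 FPKM for Ftl1 and 4731 ± 177 FPKM for Fth1 in control (SD, n = 3). Slc25a37, which encodes mitoferrin 1, the iron importer of erythroid mitochondria, followed with 837 ± 14.2 FPKM, and then Tfrc, which encodes transferrin receptor 1, with 581 ± 63.8 FPKM. The endosomal reductase gene Steap3 had 82.0 ± 12.9 FPKM and the endosomal iron transporter gene Slc11a2 (DMT1) 42.8 ± 2.92 FPKM. Tfr2, encoding a second transferrin receptor that senses transferrin loading, had 29.5 ± 0.781 FPKM. Slc40a1 (ferroportin, the iron exporter) at 17.8 ± 4.0004 FPKM, Hmox1 (heme oxygenase 1, which opens heme and frees its iron) at 14.02 ± 1.57 FPKM and Ireb2 (iron regulatory protein 2) at 13.3 ± 0.939 FPKM closed the order. Neighbours from Ftl1 down to Slc40a1 had ranges over the 6 samples that did not overlap, while Slc40a1, Hmox1 and Ireb2 overlapped and are not ordered.

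**Figure D1:**
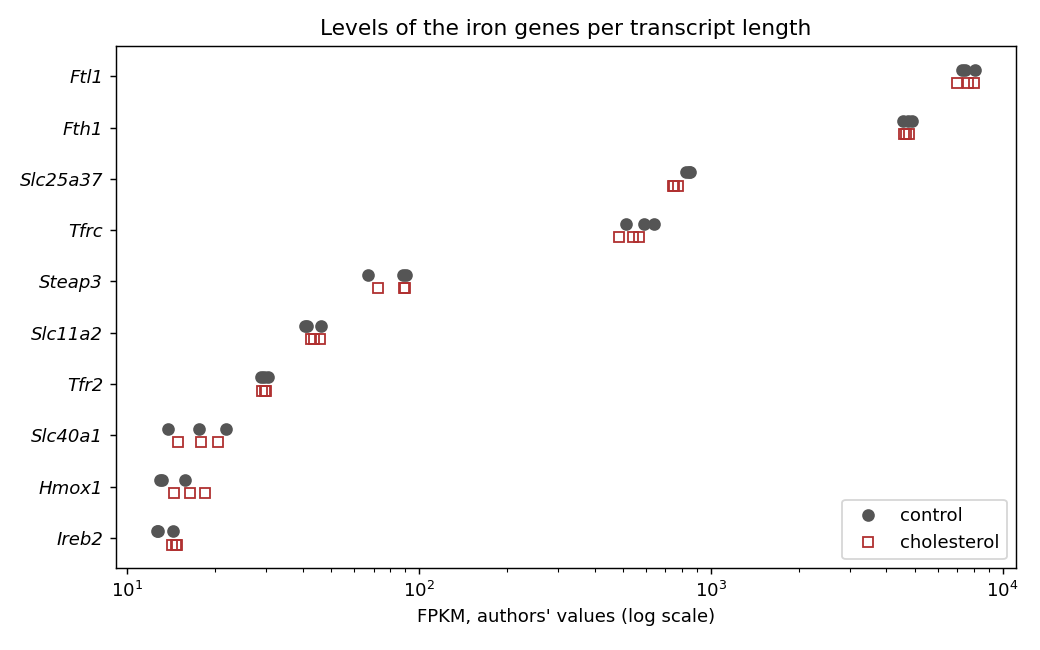
Levels of the 10 iron genes in FPKM (log scale, the authors' values), with filled circles for the 3 control samples and open squares for the 3 cholesterol samples. Ftl1 and Fth1 lie at 4549 FPKM or above in every sample, and Slc40a1, Hmox1 and Ireb2 overlap between 12.7 and 21.8 FPKM.

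Whether added cholesterol moved the mRNAs of iron handling was asked with edgeR's quasi-likelihood test over all 11277 genes. With condition alone, 0 of the 10 members were called at an adjusted p under 0.05, where 0.00887% of all genes were, and Slc25a37 was the 1 member with an unadjusted p under 0.05 (2.63% of all genes). DESeq2 with condition alone also called 0 members, where it called 0.164% of genes. With the replicate number as a block, 2 members were called lower, Slc25a37 and Tfrc, where 5.2% of all genes were, and 0 were called higher, where 1.65% were (6.85% in either direction). DESeq2 with the block called the same 2 genes lower and 0 higher, where it called 2.16% of genes lower and 0.37% higher (2.53% in either direction). On the CPM scale 2 members, Slc25a37 and Fth1, had no overlap between groups with cholesterol lower and 0 with cholesterol higher, where 4.28% and 3.72% of all genes did. The median log2 fold change of the 10 members with the block was −0.02, beside 0.01 for all genes tested. Both calls were lost when both samples of number 1 or both of number 2 were left out, with log2 fold changes close to those of all 6 samples, and held without number 3, when Hmox1 was called higher as well.

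**Figure D2:**
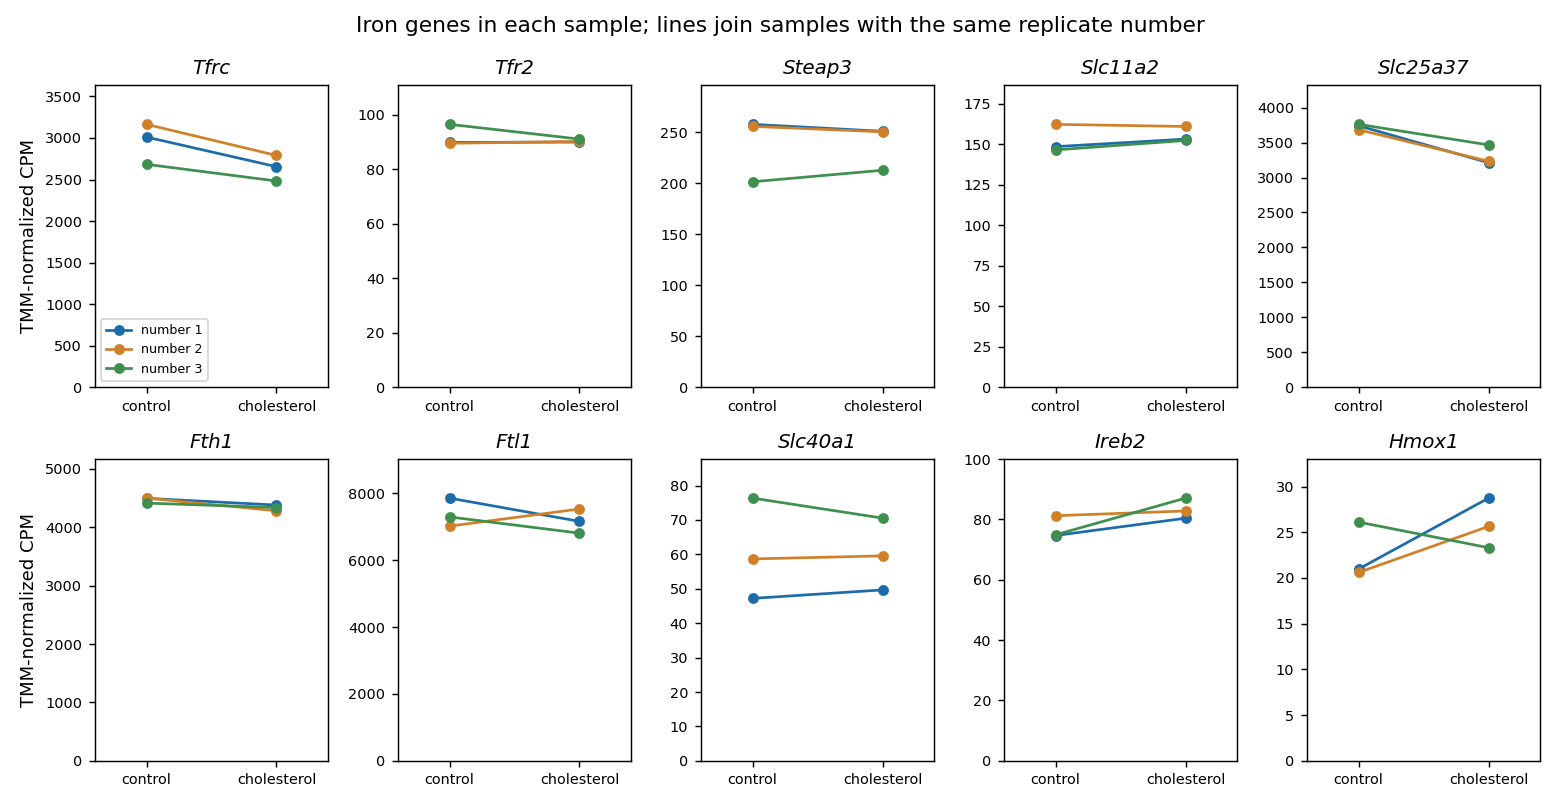
TMM-normalized CPM of the 10 iron genes in each sample, with a line from the control to the cholesterol sample of the same replicate number. All 3 lines fall for Tfrc, Slc25a37 and Fth1, all 3 rise for Ireb2, and the line of number 3 runs against the other lines for Hmox1.

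The importer of mitochondria gave the clearest difference. Slc25a37 (chr14:69241848-69285544, minus strand, GRCm38.p6) stood at 3742, 3686 and 3762 CPM in control samples 1 to 3 and at 3213, 3233 and 3468 CPM in cholesterol samples 1 to 3. Every cholesterol sample lay below every control sample. The level was 3730 ± 39.7 CPM in control and 3305 ± 142 CPM with cholesterol (SD, n = 3), and within pairs 1 to 3 it was lower by a log2 difference of −0.22, −0.19 and −0.12. The log2 fold change was −0.17 with condition alone (standard error 0.06, 95% interval −0.33 to −0.02, adjusted p = 0.9998 in edgeR), and −0.18 with the block (standard error 0.04, 95% interval −0.26 to −0.09, adjusted p = 0.0086 in edgeR and 0.001 in DESeq2), and on the linear scale the 95% interval ran from −16.3% to −6.28%. With the block, the adjusted p in edgeR was 0.154 without number 1 (log2 fold change −0.15), 0.0683 without number 2 (−0.17) and 1.17e-05 without number 3 (−0.21). Its counts lay more than 0.001 from a whole number in all 6 samples, as estimated counts are where reads match more than 1 gene, and its values carry that uncertainty.

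Tfrc (chr16:32608896-32632794, plus strand), the receptor gene with the 4 hairpins printed above, stood at 3011, 3164 and 2683 CPM in control samples 1 to 3 and at 2654, 2790 and 2482 CPM in cholesterol samples 1 to 3. The groups overlapped, since control sample 3 lay below cholesterol sample 2, but each cholesterol sample lay below the control sample of its number, by log2 differences of −0.18, −0.18 and −0.11. The level was 2953 ± 246 CPM in control and 2642 ± 154 CPM with cholesterol (SD, n = 3). The log2 fold change was −0.16 with either model, with a standard error of 0.09 for condition alone (adjusted p = 0.9998 in edgeR) and of 0.04 with the block (95% interval −0.24 to −0.08, adjusted p = 0.0153 in edgeR and 0.00352 in DESeq2). With the block, the adjusted p in edgeR was 0.173 without number 1 (log2 fold change −0.14), 0.113 without number 2 (−0.15) and 0.000194 without number 3 (−0.18). In these same pairs, 8 of the 9 erythroid markers tested were lower with cholesterol in all 3 pairs, where 20.1% of all genes were. The median log2 fold change of the 9 was −0.08 with the block. Of the 9, edgeR called 1, Alas2, lower with the block, where 5.2% of all genes were, and 0 with condition alone. The part of the erythroid markers in the values of Tfrc and Slc25a37 was not tested, and neither was that of the markers of other cells.

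The other genes of the uptake route were not called in either model. Tfr2 (chr5:137569822-137588081) stood at 89.8, 89.5 and 96.4 CPM in control samples 1 to 3 and at 89.9, 90.2 and 91.0 CPM with cholesterol. The groups overlapped, and the 95% interval of its log2 fold change with the block was −0.12 to 0.07. Steap3 (chr1:120226414-120271081), whose product reduces iron in the endosome, had 258, 256 and 201 CPM in control and 251, 250 and 213 CPM with cholesterol. The 2 samples of number 3 were the lowest of their groups, and the log2 fold change with the block was 0.0026 (95% interval −0.09 to 0.09). Slc11a2 (chr15:100387898-100424209) had 149, 162 and 147 CPM in control and 153, 161 and 152 CPM with cholesterol, and its log2 fold change with the block was 0.03 (95% interval −0.06 to 0.12).

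Ferritin mRNA differed little between the groups. Fth1 (chr19:9980600-9985111) had 4495, 4500 and 4414 CPM in control samples 1 to 3 and 4380, 4282 and 4338 CPM with cholesterol. The groups did not overlap, as for 8% of all genes counting both directions, and Fth1 was lower in all 3 pairs. The log2 fold change with the block was −0.04 (standard error 0.04, 95% interval −0.12 to 0.04, adjusted p = 0.583 in edgeR). The separation depended on the scaling, since the authors' FPKM values of Fth1 overlapped, with 4549 to 4902 in control and 4579 to 4795 with cholesterol. Ftl1 (chr7:45457944-45459886) had 7853, 7016 and 7290 CPM in control and 7158, 7527 and 6806 CPM with cholesterol, and pair 2 went against the other pairs. Its log2 fold change with the block was −0.04 (95% interval −0.14 to 0.05). The counts of Ftl1 were not whole in any sample, and its values carry the same uncertainty, whereas those of Fth1 were whole.

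Export, sensing and heme breakdown were not called either. Slc40a1 (chr1:45908070-45926532) had 47.2, 58.7 and 76.4 CPM in control samples 1 to 3 and 49.7, 59.6 and 70.5 CPM with cholesterol. Its values followed the replicate number and not the treatment, and the log2 fold change with the block was −0.01 (95% interval −0.12 to 0.10). Ireb2 (chr9:54862658-54912534) had 74.7, 81.2 and 74.9 CPM in control and 80.4, 82.8 and 87.1 CPM with cholesterol. It was the 1 member higher in all 3 pairs, where 19.9% of all genes were, with a log2 fold change of 0.12 with the block (standard error 0.05, 95% interval 0.01 to 0.22, adjusted p = 0.195 in edgeR).

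Hmox1 (chr8:75093618-75100593) had 20.98, 20.6 and 26.1 CPM in control samples 1 to 3 and 28.7, 25.6 and 23.3 CPM with cholesterol. Numbers 1 and 2 were higher with cholesterol, by log2 differences of 0.45 and 0.31, and number 3 was lower, at −0.16. Over all samples the log2 fold change with the block was 0.20 (standard error 0.11, 95% interval −0.06 to 0.46, adjusted p = 0.393 in edgeR). With the block it was 0.08 without number 1, 0.15 without number 2 and 0.38 without number 3, the last with an adjusted p of 0.000333 in edgeR, so that the value depended on which pair was left out. Number 3 held the highest summed macrophage markers, 133 CPM in control and 63.1 CPM with cholesterol. Macrophages also express Hmox1 and Slc40a1, and the part of these cells in either gene was not tested.

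**Figure D3:**
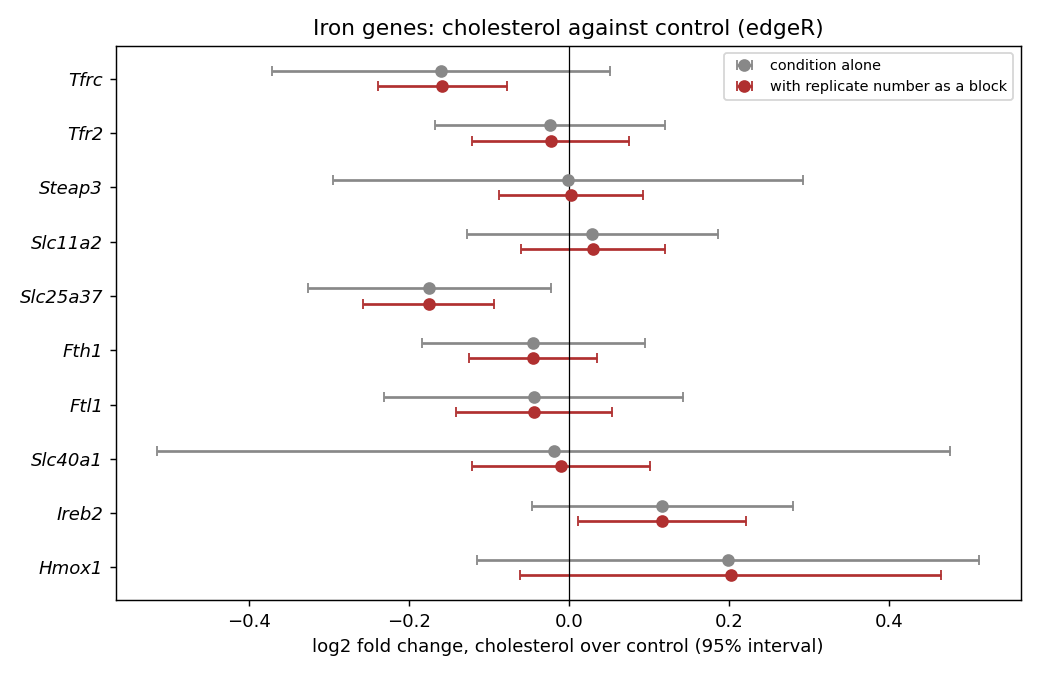
Log2 fold change of cholesterol over control for the 10 iron genes, with 95% intervals from edgeR, in gray for condition alone and in red with the replicate number as a block. With the block, the intervals of Tfrc (−0.24 to −0.08) and Slc25a37 (−0.26 to −0.09) lie below 0, and that of Ireb2 (0.01 to 0.22) lies above 0 without passing the adjustment over all genes.

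Between replicate numbers, 3 of the 10 members differed at an adjusted p under 0.05 in edgeR's test, where 46.3% of all genes did. They were Slc40a1 (adjusted p = 2.004e-06), Steap3 (adjusted p = 0.000149) and Tfrc (adjusted p = 0.00469). The mean over both samples of a number was 48.4, 59.1 and 73.5 CPM for Slc40a1 with numbers 1 to 3, a log2 range of 0.60. For Steap3 it was 254, 253 and 207 CPM, and for Tfrc 2833, 2977 and 2582 CPM, with log2 ranges of 0.30 and 0.21. Number 3 thus had the most mRNA of the exporter and the least of the receptor and the reductase. In the same samples the summed macrophage markers were highest in number 3. Of the 9 erythroid markers tested, 6 were highest in number 3, among them Slc4a1 and Alas2, 2 were lowest there (Klf1 and Epor) and Gata1 was neither. The part of either in the members' values was not tested. The 2 ferritin genes, Slc25a37, Slc11a2, Tfr2, Ireb2 and Hmox1 were not called by number.

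Ratios between related genes within a sample were compared on the FPKM scale, without pairing, with exact two-sided permutation tests that allow no p under 0.1 with 3 against 3 samples. Tfrc exceeded Tfr2 by 16.7 to 21.7 times and Slc25a37 exceeded Slc25a28, the gene of mitoferrin 2, by 41.2 to 52.7 times. The latter ratio was 50.3 on average in control and 43.4 with cholesterol, with every cholesterol sample below every control sample (exact p = 0.1, adjusted p = 0.2 over 4 ratios). Heavy to light ferritin chain mRNA was 0.625 in both groups on average, with a log2 difference of −0.00093 between groups (exact p = 1). The ratio of Ireb2 to Aco1, the genes of the 2 iron regulatory proteins, was 3.68 in control and 5.10 with cholesterol. Its log2 values were 1.75, 1.93 and 1.96 without and 2.36, 2.29 and 2.40 with cholesterol for numbers 1 to 3, so that the groups did not overlap (exact p = 0.1, adjusted p = 0.2 over 4 ratios).

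A list of 78 other genes of iron handling gave the setting of the members. Of these 77 had a row and 65 were tested. With condition alone, 0 were called by edgeR or DESeq2 and 2 had an unadjusted p under 0.05 in edgeR, Aco1 and Isca2. With the block, edgeR called 1 higher and 2 lower, the latter Aco1 and Isca2, beside 1.65% and 5.2% of all genes, and DESeq2 called 0. The median log2 fold change of the 65 genes with the block was −0.03, and 29 of them, or 44.6%, differed between replicate numbers, near the 46.3% of all genes.

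Aco1, which encodes iron regulatory protein 1, an aconitase when it carries an iron-sulfur cluster, had 17.1, 16.4 and 15.002 CPM in control samples 1 to 3 and 11.98, 13.1 and 12.5 CPM with cholesterol. The groups did not overlap, and the log2 fold change with the block was −0.37 (standard error 0.09, adjusted p = 0.0121 in edgeR and 0.408 in DESeq2). Isca2, a gene of mitochondrial iron-sulfur cluster assembly, had 81.5, 76.1 and 77.8 CPM in control and 67.0, 69.6 and 66.2 CPM with cholesterol, a log2 fold change of −0.21 with the block (standard error 0.05, adjusted p = 0.012 in edgeR and 0.209 in DESeq2). Here too every cholesterol sample lay below every control sample. With the block and both samples of a number left out, Isca2 was called without number 2 or number 3, and Aco1 only without number 3.

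**Figure D4:**
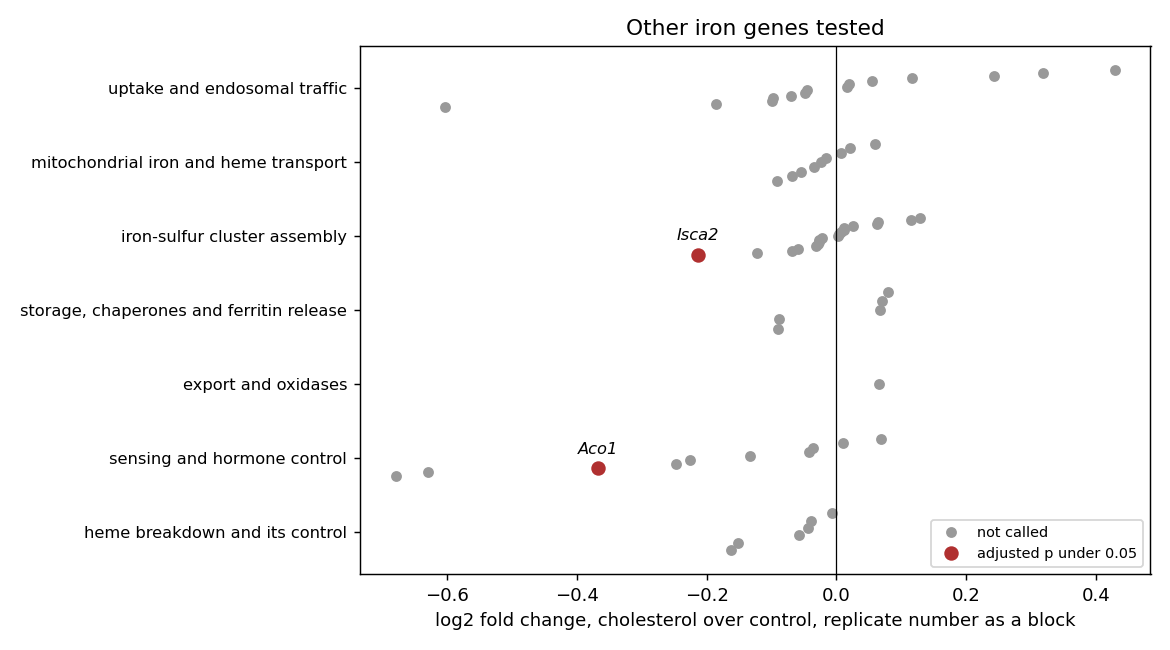
Log2 fold change of cholesterol over control, with the replicate number as a block, for the other iron genes tested but 1, by role, with the 2 genes called lower by edgeR in red and named. Isca2 lies at −0.21 and Aco1 at −0.37, and the other genes within each role lie on both sides of 0 except for export, with 1 gene, and heme breakdown, with 6 of 6 below 0.

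By role, the genes with the smallest p outside these calls did not pass the adjustment over all genes. Among 14 tested genes of uptake and endosomal traffic, Slc39a8, a metal ion importer gene, gave 0.12 on the log2 scale (adjusted p = 0.115 in edgeR) and Lrp1, whose product takes up heme bound to hemopexin, −0.60 (adjusted p = 0.115). Among 10 of mitochondrial iron and heme transport, Abcb10, whose product binds mitoferrin 1 in the inner membrane, had −0.09 (adjusted p = 0.208). Among 19 of cluster assembly, Hspa9, a mitochondrial chaperone gene, had 0.11 (adjusted p = 0.107). Among 5 of storage and release, Ncoa4, the cargo receptor that sends ferritin to the lysosome, had −0.09 (adjusted p = 0.232) and Pcbp1, an iron chaperone gene, 0.08 (adjusted p = 0.364). Among 10 of sensing and hormone control, Smad6, an inhibitor of BMP signaling, had −0.68 (adjusted p = 0.145) at 2.33 CPM in control and 1.44 CPM with cholesterol. All 6 genes of heme breakdown and its control had values below 0 and 0 were called, with Blvra, a biliverdin reductase gene, at −0.16 (adjusted p = 0.0667) and Hmox2, the second heme oxygenase gene, at −0.15 (adjusted p = 0.271). Cp, the gene of the plasma oxidase ceruloplasmin, was the 1 export gene tested and stood at 0.07 (adjusted p = 0.946). All these adjusted p-values are from edgeR with the block. With both samples of a number left out as well, Lrp1 was called without number 1 and Abcb10 without number 3.

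Across the 6 samples, which share replicate numbers and the scaling, the genes whose log2 CPM resembled Slc25a37 most among 7243 others with a mean of at least 10 CPM were Asah1, which encodes the lysosomal acid ceramidase (Pearson r = 0.990), Atp9b (0.980) and Sapcd2 (0.972). Those most like Tfrc were Stt3a (0.996), Slc38a5 (0.982) and Itsn2 (0.974). The correlation does not compare the size of changes. With the block, the log2 fold changes were −1.60 for Asah1, −0.13 for Atp9b and −0.20 for Sapcd2. They were −0.13 for Stt3a, −0.18 for Slc38a5 and −0.06 for Itsn2. The correlations are the highest of many over few samples and are a description alone.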

How the data were processed

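The authors deposited expected counts per gene, as RSEM estimates them, which are not normalized, and a second table of normalized values. Per the labels, HISAT2 2.0.4, Bowtie2 2.2.5, RSEM 1.2.12, DESeq2 1.4.5 and GRCm38.p6 were used, with no role given. The unit of the second deposited table is not named and was taken as FPKM, because count and value imply a length per gene that varied by a median of 0.781% over samples. Between 27.9% and 29.5% of a sample's values lay more than 0.001 from a whole number and are called not whole.

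Counts were rounded, filtered with filterByExpr (10 counts in enough samples, 15 in total), TMM-normalized and tested by the quasi-likelihood method (edgeR 4.0.16, R 4.3.3), adjusting p-values after Benjamini and Hochberg over 11277 genes. Standard errors and 95% intervals come from the F statistic. The block fit added the replicate number, which the sample titles give, and same-numbered samples correlated above 0.1 for all 3 numbers. DESeq2 1.42.0, limma 3.58.1 on log2(FPKM + 1), other scalings and filters, and left-out samples were alternatives. Pair differences are of log2(CPM + 0.1). Libraries were no copies of each other (chi-square per degree of freedom at least 8.65). The tests were checked on simulated data with planted changes larger than those of Slc25a37 and Tfrc, so the check does not cover changes of their size.

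The members and lists were chosen with earlier results of these data known. Named were the members, the other iron genes called with either model or among the 2 smallest block p-values of their role, and the 3 genes most like each of the 2 members with the smallest block p. The values of 1 other iron gene called higher are not reported here. Marker lists of erythroid, macrophage, granulocyte, mast cell, megakaryocyte and hepatocyte genes were summed. Of the 8 megakaryocyte markers tested 1 was called lower with the block, and of the 10 hepatocyte markers 0. Positions are from RefSeq and hairpins from GENCODE M21 (GRCm38).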

Additional observations from a re-analysis of the deposited data

How the results depend on the processing

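With condition alone, 0 members and 0 other iron genes were called higher or lower, and this held under DESeq2, other size factors, scaling without adult globins, no filter, at least 10 counts in every sample, limma on FPKM and each sample left out. The replicate block gave 2 members lower in edgeR and 2 in DESeq2, and in edgeR 1 other iron gene higher and 2 lower. With the block and both samples of a number left out, members called lower were 0, 0 and 2 without numbers 1 to 3 and members higher 1 without number 3. Other iron genes were then 1 higher and 2 lower without number 1, 0 and 1 without number 2, and 1 and 3 without number 3. The count of 3 members that differed by number held in 4 of 4 alternatives. Of 170 alternative fits of single members, 145 kept direction and side of the threshold, 7 passed it and 18 changed sign, none of them called. Ranges given next are those with single samples left out and no block. Tfr2 turned to 0.0071 with limma and 0.0047 with the replicate block without number 3, and ranged from −0.0415 to 0.0124. Steap3 turned to 0.00265 with the block, 0.00408 with DESeq2 and the block, 0.0025 without a filter, 0.0367 with limma, and 0.0261 and 0.0195 with the block without numbers 1 and 2, and ranged from −0.109 to 0.076. Ftl1 turned to 0.00374 with the block without number 1 and ranged from −0.0833 to 0.0063, while the block without number 2 gave −0.116. Slc40a1 turned to 0.0169 with limma and 0.0442 with the block without number 3, and ranged from −0.168 to 0.179. The log2 ratio of Fth1 to Ftl1 between groups ranged from −0.0418 to 0.044. Over all genes, condition alone gave 1 higher and 0 lower, DESeq2 2 and 25, the block 186 and 586, and DESeq2 with the block 41 and 239. The cause of these changes was not tested.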

Other observations

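Trf, the gene of transferrin itself, which hepatocytes secrete, varied more between samples than the members did. It had 34.8, 28.1 and 86.8 CPM in control samples 1 to 3 and 61.4, 19.3 and 70.5 CPM with cholesterol, with no call in edgeR with the block (log2 fold change 0.02, adjusted p = 0.989). The 10 hepatocyte markers summed to 123, 103 and 294 CPM in the control samples and to 213, 71.6 and 247 CPM with cholesterol, so that the same samples were highest and lowest for both. With the block, Trf was called when both samples of number 1 or both of number 3 were left out. The part of hepatocyte RNA in the values of Trf was not tested. Erfe, which encodes the erythroblast hormone erythroferrone, had 187, 195 and 161 CPM in control and 190, 189 and 167 CPM with cholesterol, with a log2 fold change of 0.01 with the block (95% interval −0.08 to 0.10). Erfe lies outside the rule for named genes and was chosen after its values were seen, as was Trf.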
